A study of Homo sapiens with 4 samples.

Results

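The genes described here are 30 transcriptional targets of the tumour suppressor p53, named in a fixed list and found as rows of a table with 57014 named rows. All 30 had a row of their own, and all 30 passed the filter on low counts that left 18043 genes to test. They were measured in 22Rv1, a human prostate cancer cell line, from poly(A)-selected RNA. The CD276 knockout group held 2 libraries named with sgCD276, and the control group, labelled wild type, held 2 libraries named with sgGFP; both groups carry the replicate numbers 1 and 3. CD276 encodes B7-H3, an immune checkpoint protein on the cell surface. Both groups were grown in RPMI-1640 medium with fetal bovine serum, and the labels do not say whether the knockout is 1 clone or a pool, which guide was used, or when after editing the cells were taken.

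p53 is a transcription factor that is kept low by the ubiquitin ligase MDM2 and accumulates after DNA damage and other stresses. It binds DNA at response elements made of a pair of decamer half-sites, and the genes it switches on stop the cell cycle, start cell death, help repair DNA or change metabolism. Some of its targets, MDM2 and PPM1D among them, act back on p53 and limit the response. In prostate cancer p53 is often lost in advanced disease.

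The short sequences below are the best matches to the p53 response element consensus in the promoters of these genes, shown because members are grouped by a shared regulator. The windows ran from 250 bases before to 50 bases after each RefSeq transcript start (GRCh38.p14), and 25 of the 30 genes had one; GADD45A, TNFRSF10B, TP53INP1, PHLDA3 and RRM2B did not. A match was a pair of half-sites of 10 bases with the invariant C and G in place and a spacer of 0 to 13 bases. The consensus is its own reverse complement, so 1 scan covers both strands. Among the members, 10 of 25 held a match with at most 3 mismatches, against 15.3% of all 27305 genes with a window, and 5 of 25 with at most 2, against 3.62%. Capitals mark bases that match the consensus, and lower case marks mismatches and the spacer.
DDB2: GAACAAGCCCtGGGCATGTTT
AEN: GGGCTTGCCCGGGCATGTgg
FAS: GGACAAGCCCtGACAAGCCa
MDM2: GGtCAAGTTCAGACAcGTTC
FDXR: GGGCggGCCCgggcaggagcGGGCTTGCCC
PMAIP1: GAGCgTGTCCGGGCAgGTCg
SESN1: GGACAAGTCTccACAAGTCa
GDF15: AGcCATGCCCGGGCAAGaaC
PLK2: AGACTTGCTTcccGGcCAcGCgC
ZMAT3: GGGCcTGCTCcgccaaGcACATGCgC
The DDB2 match has 0 mismatches and lies at chr11:47214979-47214999 on the plus strand, starting 6 bases into the transcript. Those of AEN (chr15:88621306-88621325), FAS (chr10:88991309-88991328) and MDM2 (chr12:68808923-68808942), all on the plus strand, have 2 mismatches and no spacer. Of these 10 genes 1, AEN, passed the edgeR test between the groups described below, which 22.8% of all genes tested passed. PLK2, ZMAT3, FDXR, PMAIP1 and FAS had both knockouts above both controls and missed it. Their edgeR adjusted p was 0.0843, 0.0809, 0.107, 0.258 and 0.489. Over all genes tested 31.8% had both knockouts above both controls. DDB2, MDM2, SESN1 and GDF15 overlapped between the groups. A match describes letters in this window and shows no binding, and the other members may be bound elsewhere.

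The libraries and the targeted gene were checked first. Counts in named rows summed to 24437926 and 25802417 in knockout replicates 1 and 3 and to 23206271 and 20079050 in control replicates 1 and 3. Levels below are normalized CPM, that is, counts per 1e6 after scaling the libraries by trimmed mean of M-values. CD276 was at 23.6 and 26.2 normalized CPM in the knockouts, against 47.4 and 54.4 in the controls, which is -1.03 ± 0.16 as a log2 fold change with its SE (edgeR adjusted p = 0.00561; 0.0812 without control replicate 3). It was thus lower in both libraries labelled knockout but still transcribed, and counts per gene do not show an edit. The 10 prostate epithelial markers of the list all passed the low-count filter, while of 11 markers of other cell types 5 passed it and CD3E and PECAM1 had 0 counts in every library. KRT18, an epithelial keratin, fell, at 438 and 593 normalized CPM in the knockouts and 854 and 801 in the controls (edgeR adjusted p = 0.037), and CDH1, E-cadherin, rose, at 312 and 272 in the knockouts and 204 and 213 in the controls (0.0439, and 0.138 with offsets for GC content and length). COL1A1, a fibroblast collagen gene, was the single marker of another cell type above 6 normalized CPM and fell, at 18.9 and 29.1 in the knockouts and 49.98 and 46.2 in the controls (edgeR adjusted p = 0.0139). DCN and COL3A1, also fibroblast genes, lay below 2 normalized CPM in every library and did not pass (0.172 and 0.183). Without control replicates 1 and 3 the adjusted p was 0.365 and 0.251 for KRT18, 0.477 and 0.358 for CDH1 and 0.13 and 0.0662 for COL1A1. The transcripts of the mitochondrial genome took 1.46% and 1.78% of the counts in the knockouts and 5.84% and 6.15% in the controls. The part of these differences in the values of the p53 targets was not tested. The design text calls the replicates biological without naming separate cultures, and the p-values cover no more than the spread among these 4 libraries.

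Of the 30 p53 targets, 8 rose in the knockouts, 1 fell and 21 did not pass the test, at an edgeR adjusted p under 0.05 over all genes tested. The share of all genes that rose was 9.87%, the share that fell was 12.9%, and the share that changed either way was 22.8%. The genes that rose were CDKN1A, BTG2, CCNG1 and PPM1D of the arrest and feedback group, EDA2R, AEN and TRIAP1 of the death group and RRM2B of the repair group. BAX, of the death group, fell. The median log2 fold change of the 30 was 0.41, against -0.0045 over all genes. By library, knockout replicate 1 had a median log2 ratio to the controls of 0.19 and knockout replicate 3 one of 0.50, against -0.048 and 0.013 for all genes. Scaled by library totals alone, which moved the median of all genes to 0.10, 11 targets rose and 0 fell, while over all genes 2340 rose and 1781 fell, against 1780 and 2331 with the scaling used here. With either control left out, most calls were lost: 1 target rose without control replicate 1 and 2 without control replicate 3, 0 fell, and over all genes 45 and 151 rose and 267 and 448 fell. Leaving out a knockout also moved the calls, over all genes as well as the targets. The spread then came from the controls alone, and with a control left out it came from the knockouts alone. Over the targets the median gap on the log2 scale was 0.36 between the knockouts and 0.14 between the controls. The median log2 fold change of the targets was 0.50 without knockout replicate 1 and 0.26 without knockout replicate 3. Over all genes it was -0.0024 and -0.017.

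**Figure D1:**
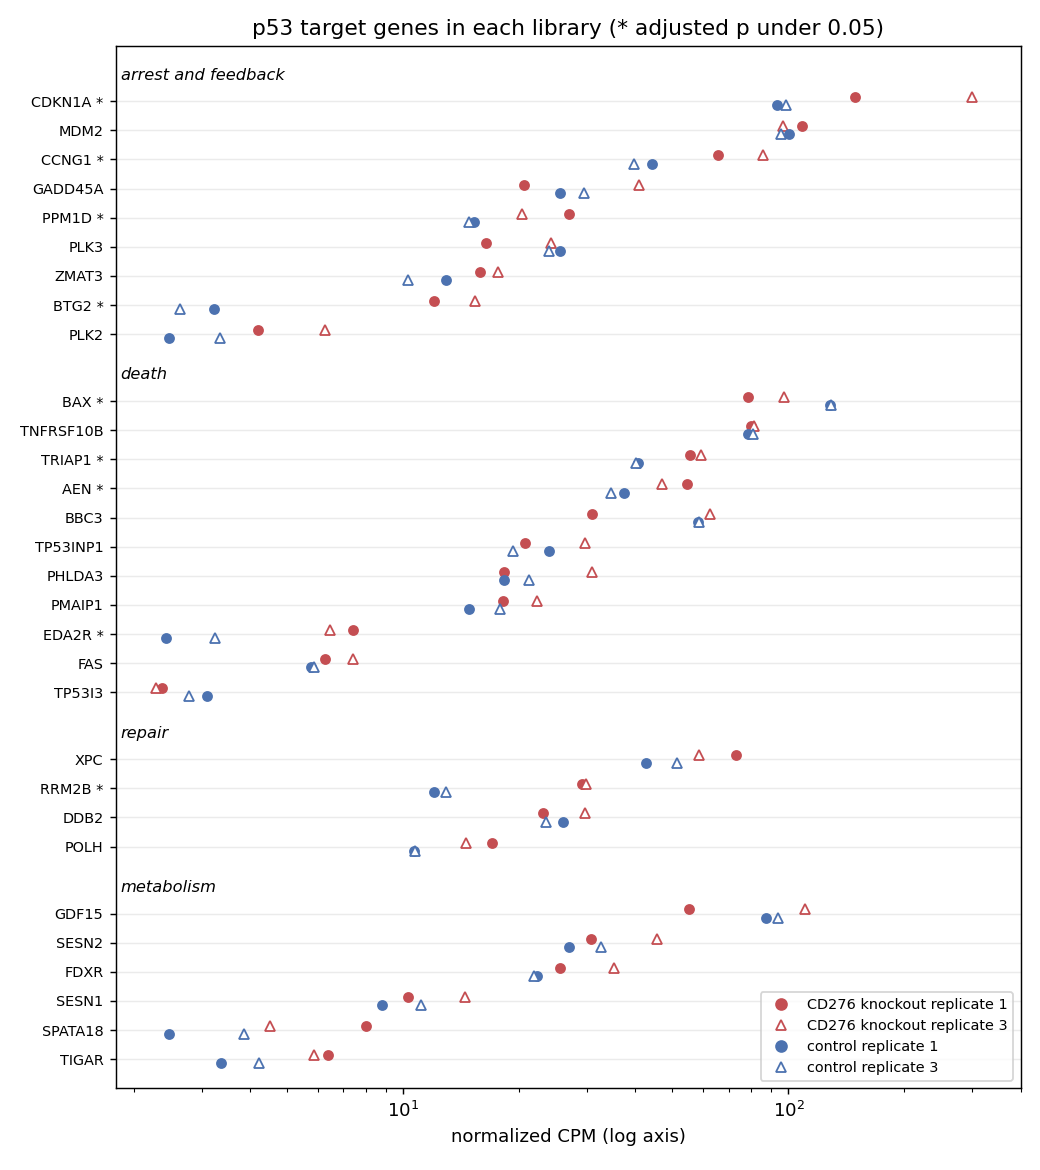
Normalized CPM (log axis) of the 30 p53 target genes in each library, by role; red marks the CD276 knockouts and blue the controls, circles replicate 1 and open triangles replicate 3, and an asterisk an adjusted p under 0.05. BTG2, RRM2B and EDA2R show the knockouts together on the right of the controls, while for CDKN1A, GADD45A, BBC3 and GDF15 the triangle and the circle of the knockouts lie far apart.

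Of the 9 arrest and feedback genes 4 rose, 0 fell and 5 did not pass, while over all genes 9.87% rose and 12.9% fell. CDKN1A, which encodes the cyclin-dependent kinase inhibitor p21 and is the best known arrest gene of p53 (chr6:36676460-36687339, plus strand), was at 148 and 300.2 normalized CPM in knockout replicates 1 and 3, against 93.1 and 98.8 in control replicates 1 and 3. Both knockouts lay above both controls, with replicate 3 well above replicate 1. The log2 fold change was 1.22 ± 0.28 (edgeR adjusted p = 0.0183), and 0.70 without knockout replicate 3 against 1.66 without knockout replicate 1. With a control left out the call was lost, at an edgeR adjusted p of 0.105 without replicate 1 and 0.0661 without replicate 3. A small part of its exons, 4.79% of the bases, overlaps DINOL, a gene read the other way.

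BTG2, an antiproliferative protein that recruits the mRNA deadenylase complex (chr1:203305491-203309602, plus strand), had the largest fold change of the 30. It was at 12.0 and 15.4 normalized CPM in the knockouts, against 3.22 and 2.63 in the controls. Its groups were far apart, though at a low level. The log2 fold change was 2.22 ± 0.25 (edgeR adjusted p = 0.00287), and BTG2 alone among the 30 passed under each of the 12 alternative settings. CCNG1, cyclin G1, which brings a phosphatase to MDM2 (chr5:163437569-163446151, plus strand), was at 65.7 and 86.1 normalized CPM in the knockouts and 44.3 and 39.8 in the controls. The groups did not overlap, and the log2 fold change was 0.85 ± 0.17 (edgeR adjusted p = 0.0113). Its adjusted p was 0.115 without control replicate 1 and 0.147 without control replicate 3.

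Of the genes that act back on p53, PPM1D passed the test and MDM2 did not, and the difference between them was not tested. PPM1D, the phosphatase WIP1 that removes activating phosphates from p53 and ATM (chr17:60600183-60666280, plus strand), was at 26.9 and 20.3 normalized CPM in the knockouts, against 15.3 and 14.8 in the controls. Both knockouts were higher, here with replicate 1 above replicate 3, and the log2 fold change was 0.65 ± 0.19 (edgeR adjusted p = 0.0405). This call sits close to the threshold: the adjusted p was 0.0794 with GC and length offsets (log2 fold change 0.43), 0.0506 under limma voom, 0.323 without control replicate 1 and 0.305 without control replicate 3. MDM2, the ubiquitin ligase of p53, was at 109 and 96.5 normalized CPM in the knockouts and 100.2 and 95.7 in the controls. Its groups overlapped, with a log2 fold change of 0.07 ± 0.14 and a 95% interval of -0.24 to 0.38, so a rise of the size seen for CDKN1A lay outside the interval.

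The remaining genes of the arrest group did not pass. PLK2, a polo-like kinase of the stress response, was at 4.19 and 6.26 normalized CPM in the knockouts and 2.46 and 3.36 in the controls, and ZMAT3, an RNA-binding protein, at 15.8 and 17.6 in the knockouts and 12.9 and 10.3 in the controls. In both the knockouts lay above the controls, with edgeR adjusted p of 0.0843 and 0.0809. GADD45A, which binds cell cycle and repair proteins after damage, was at 20.6 and 41.1 normalized CPM in the knockouts, on either side of 25.5 and 29.4 in the controls. PLK3, the related kinase, was at 16.5 and 24.2 in the knockouts, against 25.5 and 23.9 in the controls, and its groups overlapped.

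**Figure D2:**
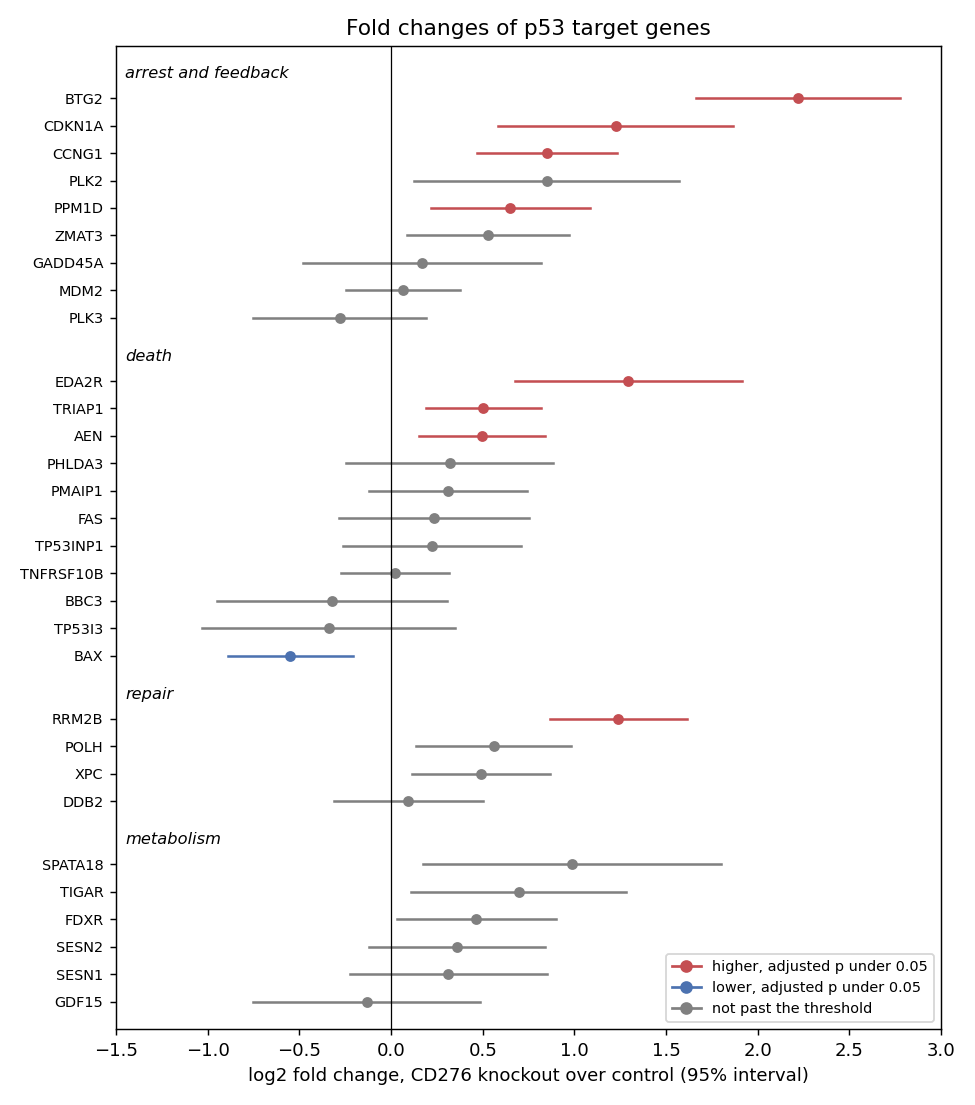
Log2 fold change of each p53 target gene, CD276 knockout over control, with its 95% interval from the edgeR fit, by role. The 8 genes that rose are red, BAX, the 1 that fell, is blue, and the intervals of most grey genes include 0.

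Of the 11 death genes 3 rose, 1 fell and 7 did not pass the test, while over all genes 9.87% rose and 12.9% fell. The BCL2 family members are given first. BAX, which forms pores in the outer mitochondrial membrane (chr19:48954815-48961798, plus strand), was at 78.3 and 97.1 normalized CPM in the knockouts, against 128 and 129 in the controls. Both knockouts lay below controls that were nearly equal, and the log2 fold change was -0.55 ± 0.15 (edgeR adjusted p = 0.0319). The fall missed the threshold when libraries were scaled by their totals alone (adjusted p = 0.0537), with offsets for GC content and length (0.0898, log2 fold change -0.30) and without control replicate 1 (0.322) or 3 (0.278). BBC3, which encodes the BH3-only protein PUMA, was at 31.0 and 62.4 normalized CPM in the knockouts and 58.2 and 58.5 in the controls. Knockout replicate 1 was thus well below both controls and replicate 3 slightly above them, and the fold change was -0.32 ± 0.28 on the log2 scale. PMAIP1, the BH3-only protein NOXA, was at 18.2 and 22.3 normalized CPM in the knockouts and 14.8 and 17.8 in the controls; both knockouts were higher by a narrow margin and the gene did not pass (edgeR adjusted p = 0.258).

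Of the receptors in the death group, EDA2R passed the test and TNFRSF10B and FAS did not, and the differences between them were not tested. EDA2R, a receptor of the tumour necrosis factor family for ectodysplasin A2 (chrX:66595637-66639298, minus strand), was at 7.43 and 6.46 normalized CPM in the knockouts, against 2.42 and 3.25 in the controls. The groups were well apart on 167 to 195 counts in the knockouts and 54 to 63 in the controls, and the log2 fold change was 1.29 ± 0.27 (edgeR adjusted p = 0.0138). Its adjusted p was 0.236 without control replicate 1 and 0.082 without control replicate 3. TNFRSF10B, the TRAIL receptor DR5, was at 79.8 and 81.5 normalized CPM in the knockouts and 78.3 and 80.7 in the controls, and the 95% interval of its log2 fold change ran from -0.27 to 0.32. FAS, the receptor of FAS ligand, was at 6.28 and 7.42 in the knockouts and 5.78 and 5.89 in the controls, with an interval of -0.29 to 0.75; 8.94% of its exon sequence overlaps ACTA2, which is read the other way. Neither FAS nor TNFRSF10B passed the test. The interval of TNFRSF10B still allows small changes. That of FAS reaches above the log2 fold change of 0.65 for PPM1D, which passed.

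AEN and TRIAP1 rose by similar amounts. AEN, an exonuclease that promotes apoptosis and whose promoter match is printed above (chr15:88621296-88632282, plus strand), was at 54.4 and 47.0 normalized CPM in the knockouts, against 37.4 and 34.5 in the controls. The log2 fold change was 0.49 ± 0.15, and its edgeR adjusted p of 0.0469 sat close to the threshold; it was not called in 5 of the 12 alternative settings, among them the GC and length offsets, with a log2 fold change of 0.27 and an adjusted p of 0.158. TRIAP1, a mitochondrial protein that opposes apoptosis (chr12:120443961-120446412, minus strand), was at 55.5 and 59.3 normalized CPM in the knockouts, against 40.8 and 40.2 in the controls, and the log2 fold change was 0.50 ± 0.14 (edgeR adjusted p = 0.0331). For both genes the groups were apart, and without control replicate 1 or 3 the adjusted p was 0.359 or 0.421 for AEN and 0.382 or 0.348 for TRIAP1. TP53I3, a quinone oxidoreductase linked to oxidative stress, was low, at 2.36 and 2.28 in the knockouts and 3.09 and 2.79 in the controls. TP53INP1, a stress protein that binds p53 kinases, was at 20.7 and 29.7 in the knockouts and 23.9 and 19.3 in the controls. PHLDA3, which restrains AKT at the membrane, was at 18.2 and 31.0 in the knockouts and 18.3 and 21.2 in the controls. None of these last 3 passed, and 19.1% of the exon sequence of PHLDA3 overlaps a neighbour on its own strand.

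All 4 repair genes had a positive fold change, as did 8969 of all 18043 genes. Of the 4, 1 passed the test, which 22.8% of all genes passed. RRM2B, the ribonucleotide reductase subunit that supplies nucleotides for repair and for mitochondrial DNA in resting cells (chr8:102204502-102239118, minus strand), was at 29.1 and 29.8 normalized CPM in the knockouts, against 12.0 and 12.9 in the controls. The libraries of each group were close together and the groups far apart, and the log2 fold change was 1.24 ± 0.16 (edgeR adjusted p = 0.0038). Without control replicate 1 the adjusted p of RRM2B was 0.0673, and it passed in the other 11 settings. XPC, a damage sensor of nucleotide excision repair, was at 73.2 and 58.7 normalized CPM in the knockouts and 42.6 and 51.3 in the controls (edgeR adjusted p = 0.0633). POLH, the polymerase that copies past ultraviolet damage, was at 17.0 and 14.5 in the knockouts and 10.7 in both controls (edgeR adjusted p = 0.0594). In both, the knockouts lay above the controls and replicate 1 was the higher knockout; 30.4% of the exon sequence of XPC overlaps genes read the other way. DDB2, the other damage sensor of that pathway and the gene with the exact promoter match, was at 23.1 and 29.6 in the knockouts and 25.9 and 23.4 in the controls, which overlapped.

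None of the 6 metabolism genes passed the edgeR test, which 22.8% of all genes passed, and DESeq2 called 0. In the edgeR test 3 of them had an unadjusted p under 0.05, all 3 with a positive fold change. Over all 18043 genes 3230 were higher and 3767 lower at that unadjusted threshold. SPATA18, which takes part in removing damaged mitochondrial protein, was at 7.997 and 4.52 normalized CPM in the knockouts and 2.46 and 3.87 in the controls, and the log2 fold change was 0.99 ± 0.36 (edgeR adjusted p = 0.0764). TIGAR, a phosphatase that lowers glycolytic flux, was at 6.40 and 5.88 in the knockouts and 3.36 and 4.23 in the controls, but 42.6% of its exon sequence overlaps a neighbour on its own strand. FDXR, the reductase that passes electrons to mitochondrial ferredoxins, was at 25.6 and 35.3 in the knockouts and 22.2 and 21.8 in the controls. These 3 genes had both knockouts above both controls. The sestrins restrain mTORC1 when amino acids are short. SESN1 was at 10.3 and 14.5 in the knockouts, against 8.82 and 11.2 in the controls, and SESN2 at 30.8 and 45.6 in the knockouts, against 27.0 and 32.7 in the controls. GDF15, a secreted stress cytokine, was at 55.3 and 110.4 in the knockouts, on either side of 87.5 and 94.2 in the controls. The sestrins and GDF15 overlapped between the groups.

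The knockout libraries differed from each other over these genes. Of the 30, 17 had both knockouts above both controls, 2 had both below and 11 overlapped; over all genes 31.8% lay above, 34.1% below and 65.9% on 1 side. In 21 of the 30 knockout replicate 3 was above replicate 1, against 50.1% of all genes. The knockouts differed by more than 0.5 on the log2 scale in 10 of the 30 genes, and in 29.6% of all genes, so such gaps were about as common elsewhere. In 9 of these 10 replicate 3 was the higher library and in SPATA18 replicate 1 was, while over all genes replicate 3 was the higher in 2836 such genes and replicate 1 in 2509. CDKN1A, BBC3, GDF15 and GADD45A had the widest gaps, at 1.02, 1.01, 0.995 and 0.989 on the log2 scale. The controls differed by more than 0.5 in 1 of the 30, against 12.7% of all genes. With the knockouts taken 1 at a time, BBC3, GADD45A and GDF15 had log2 fold changes of -0.85, -0.34 and -0.65 without replicate 3 and 0.11, 0.59 and 0.29 without replicate 1.

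**Figure D3:**
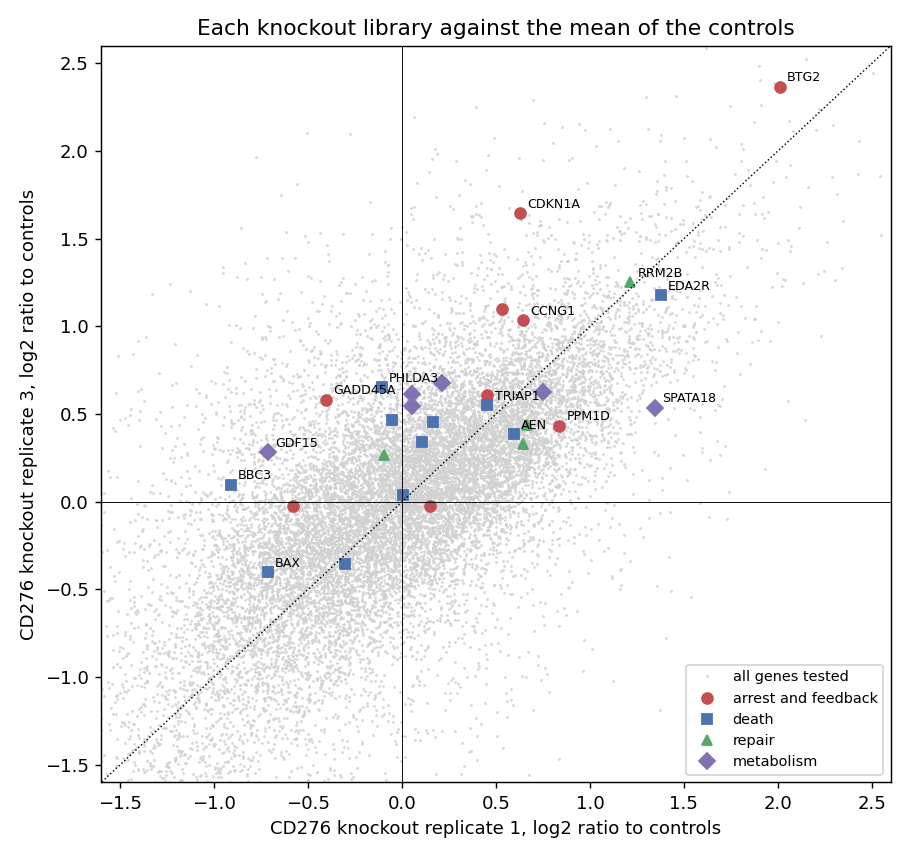
Log2 ratio of each knockout library to the mean of the controls, replicate 1 on the horizontal and replicate 3 on the vertical axis, for the p53 target genes by role and for all genes tested in grey; the dotted line marks equal ratios. RRM2B, EDA2R and BTG2 lie near the line, CDKN1A, GADD45A, BBC3 and GDF15 lie well above it and SPATA18 below it.

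The immediate early genes, a rapid first wave of transcription after a stimulus, also differed between the knockout libraries. FOS, a subunit of AP-1, was at 7.01 and 329 normalized CPM in knockout replicates 1 and 3, against 76.2 and 75.9 in the controls, and EGR1 at 25.3 and 372 in the knockouts, against 76.8 and 85.5 in the controls. All 22 listed immediate early genes were higher in knockout replicate 3 than in replicate 1, against 50.1% of all genes. Their median log2 ratio to the controls was -0.53 in replicate 1 and 1.15 in replicate 3. In the edgeR test 1 of the 22 rose, EGR2, and 0 fell; at an unadjusted p under 0.05 these counts were 6 and 0, and by DESeq2 2 and 0. EGR2 was at 0.457 and 2.98 in the knockouts, against 0.134 and 0.207 in the controls, and its call was lost without knockout replicate 3 (log2 fold change 1.48, adjusted p = 0.256) and without control replicate 1 (0.172) or 3 (0.0938). Over the 12 alternative settings the log2 fold change ran from -3.37 to 2.13 for FOS and from -1.61 to 2.21 for EGR1. EGR3 and DUSP1 had the next smallest p of the list, at edgeR adjusted values of 0.0649 and 0.0793. BTG2, GADD45A, PLK2 and PLK3 are themselves known as rapidly induced genes. The part of this difference between the knockout libraries in the values of the p53 targets was not tested.

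Among the members, per length of annotated exons, BAX, GDF15, CDKN1A and TRIAP1 were the most abundant in the controls and PLK2 and SPATA18 the least. In normalized CPM per kilobase, BAX averaged 33.9 in the knockouts and 49.7 in the controls, GDF15 39.7 in the knockouts and 43.5 in the controls, CDKN1A 73.5 in the knockouts and 31.5 in the controls, and TRIAP1 39.8 in the knockouts and 28.1 in the controls. BTG2 averaged 4.97 in the knockouts and 1.06 in the controls, and EDA2R 1.94 in the knockouts and 0.792 in the controls. CDKN1A had the highest level per kilobase of the 30 in the knockouts.

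The activity of p53 is controlled largely at the level of the protein, which was not measured. Of 20 tested genes of the p53 regulator list 1 fell, MDM4, and 0 rose, while over all genes 12.9% fell and 9.87% rose. At an unadjusted p under 0.05 in the edgeR test, 4 were higher and 5 lower. Over all 18043 genes these counts were 3230 and 3767. DESeq2 called 0 regulators higher. MDM4, a relative of MDM2 that binds and inhibits p53, was at 61.5 and 48.7 in the knockouts, against 92.2 and 91.1 in the controls, and the log2 fold change was -0.73 ± 0.15 (edgeR adjusted p = 0.0135). Both knockouts were lower, and the adjusted p was 0.186 without control replicate 1 and 0.138 without control replicate 3. ATR and CHEK2 are kinases that signal DNA damage to p53. ATR was at 24.1 and 20.6 in the knockouts, against 31.8 and 30.7 in the controls (edgeR adjusted p = 0.0612), and CHEK2 at 41.2 and 45.4 in the knockouts, against 58.4 and 56.5 in the controls (edgeR adjusted p = 0.0655).

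A second list of p53 targets held none of the 30. Of 34 tested genes 9 rose, 1 fell and 24 did not pass, and the median of their log2 fold changes was 0.39. Over all genes 9.87% rose, 12.9% fell and 22.8% passed in either direction. TNFRSF10D, a decoy receptor that binds TRAIL without killing, was at 27.6 and 26.2 normalized CPM in the knockouts, against 13.3 and 12.9 in the controls (log2 fold change 1.04 ± 0.16, edgeR adjusted p = 0.00628). APAF1, the scaffold of the apoptosome, was at 25.2 and 24.7 in the knockouts, against 12.8 and 13.2 in the controls (0.94 ± 0.16, edgeR adjusted p = 0.00769). PIDD1, a scaffold that activates caspase 2, was at 57.2 and 77.0 in the knockouts, against 149 and 132 in the controls (-1.06 ± 0.17, edgeR adjusted p = 0.00652). In each of the 3 the groups were apart. The other 7 genes that rose were BTG1, PERP, CYFIP2, KITLG, CMBL, TGFA and TRIM32, with log2 fold changes between 0.64 and 1.76. The top of this range is TGFA (1.76 ± 0.37), which was low, at 3.01 and 3.25 normalized CPM in the knockouts and 0.761 and 1.08 in the controls. Leaving out a library moved how many genes of this list were called, as it did over all genes. The adjusted p without control replicates 1 and 3 was 0.104 and 0.0898 for TNFRSF10D and 0.161 and 0.107 for APAF1, and for PIDD1 0.0775 without control replicate 1.

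**Figure D4:**
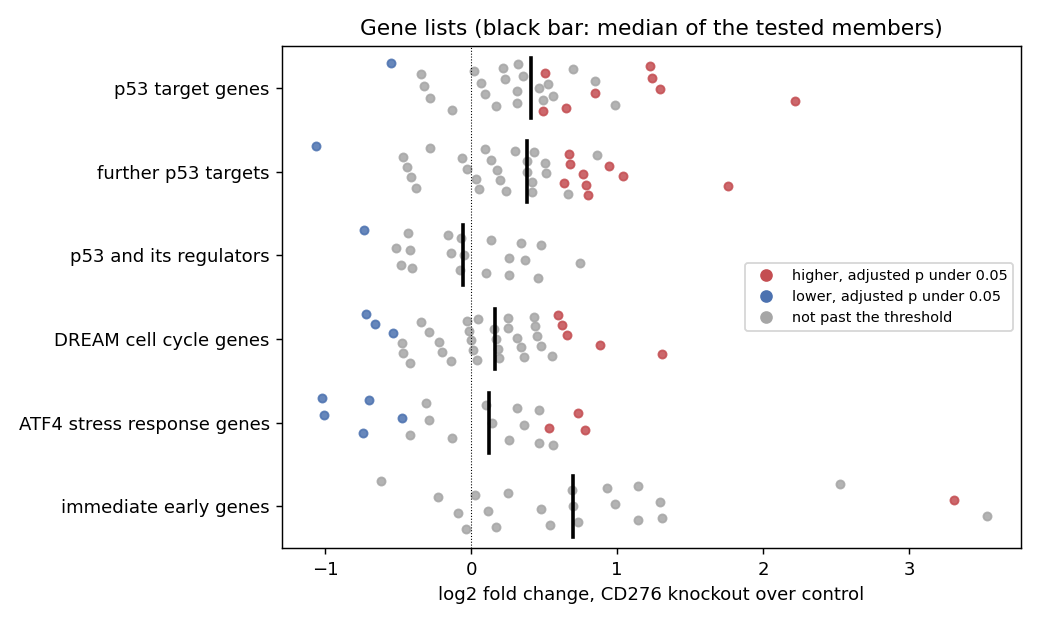
Log2 fold changes, CD276 knockout over control, of the tested genes of 6 lists, 1 point per gene, with the median as a black bar; red and blue mark genes with an adjusted p under 0.05 that rose and fell. The medians of both lists of p53 targets lie at 0.41 and 0.39, that of p53 and its regulators at -0.06.

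A list of cell cycle genes that p53 is known to repress through p21 and the DREAM complex held calls in both directions. Of 36 tested 5 rose, 3 fell and 28 did not pass, and 22.8% of all genes passed in either direction, so the count of calls was near the background; their median was 0.16 on the log2 scale, with 0.24 for knockout replicate 1 and -0.046 for knockout replicate 3. MCM6, a subunit of the replicative helicase, was at 113 and 77.4 normalized CPM in the knockouts, against 36.6 and 40.3 in the controls (1.31 ± 0.19, edgeR adjusted p = 0.00511). AURKB and CENPE, a kinase and a motor protein of mitosis, fell: AURKB was at 121 and 138 in the knockouts, against 205 and 204 in the controls, and CENPE at 48.6 and 34.9 in the knockouts, against 73.3 and 64.2 in the controls. In 6 of the 36 genes knockout replicate 3 was above replicate 1, against 50.1% of all genes. Scaled by library totals alone, 9 of these genes rose and 1 fell, and the adjusted p of CENPE was 0.063. Over the 12 alternative settings the log2 fold change ran from -0.69 to -0.46 for AURKB and from -0.97 to -0.44 for CENPE. Both calls were lost when either control was left out.

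Several of the 30 targets, among them SESN2, GDF15, BBC3, PMAIP1 and TNFRSF10B, are also known targets of the stress factors ATF4 and CHOP. Of 20 listed ATF4 response genes 3 rose and 5 fell, and the median of the list was 0.12 on the log2 scale. Over all genes 9.87% rose, 12.9% fell and 22.8% passed in either direction. Scaled by library totals alone, 6 genes of the list rose and 4 fell. CHOP itself, encoded by DDIT3, was at 57.2 and 74.5 normalized CPM in the knockouts, against 137 and 128 in the controls (-1.01 ± 0.16, edgeR adjusted p = 0.00644). NUPR1, a stress-induced chromatin protein, was at 142 and 132 in the knockouts, against 288 and 268 in the controls (-1.02 ± 0.14, edgeR adjusted p = 0.00406), while MTHFD2, a mitochondrial folate enzyme, was at 254 and 212 in the knockouts, against 130 and 142 in the controls (0.78 ± 0.15, edgeR adjusted p = 0.0108). The calls of DDIT3 and NUPR1 were lost without control replicate 1, and that of MTHFD2 when either control was left out. Over the 12 alternative settings the log2 fold change ran from -1.14 to -0.82 for DDIT3 and from -1.26 to -0.90 for NUPR1. For MTHFD2 it ran from 0.56 to 0.97. The 5 shared targets named above did not pass the test, and neither did 13932 of all 18043 genes.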

How the data were processed

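The values are raw counts per gene as the authors deposited them, in 1 table that covers the 4 libraries. Per the submitters' processing notes, reads were handled with Trimmomatic 0.36, STAR 2.5.2b and featureCounts (Subread 1.5.2) on GRCh38. Settings for strand and multi-mapping reads and the annotation release, not given in the sources used here, leave the assignment of reads uncertain where exons overlap. The 486 unnamed rows, 0.0191% to 0.0290% of a library, were left out. After filterByExpr and TMM scaling, edgeR 4.0.16 (R 4.3.3) tested knockout over control by its quasi-likelihood F test, robust and without further terms, which leaves 2 residual degrees of freedom; p-values were Benjamini-Hochberg adjusted over all genes, with a threshold of 0.05. SE is the log2 fold change divided by the square root of F. Ratios per library are differences of log2 CPM (prior count 2). Exon positions and lengths are from GENCODE 29 (GRCh38) and promoter sequences from RefSeq.

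All members are named. Values by library are given for each. Of each further list the 3 genes with the smallest p are named, and FOS and EGR1 are named as markers of the immediate early response. The 7 further targets named with their range, and the levels given for TGFA, were chosen after their values were seen. Other genes that the rule names are not reported here. Members and lists were chosen with earlier results of these data known. The alternatives were RLE scaling, library totals, no filter, a minimum of 50 counts throughout 1 group, DESeq2 1.42.0, limma voom (limma 3.58.1), the replicate number as a block, offsets for GC content and length (17776 genes had values) and leaving out each library, where a lone library borrows its spread from the other group. The scripts were tested on simulated data with 200 changed genes and a dispersion of 0.025. In that simulation the test recovered 3.5% of changes of 1.5-fold, 70% of 2-fold and 98.5% of 4-fold. In the data 4111 of 18043 genes passed, so the adjusted threshold cut elsewhere and these shares do not give the recovery here. AEN, for example, passed at a fold of 1.41. A gene that did not pass may still have changed by an amount inside its interval from the edgeR fit. For MDM2 (-0.24 to 0.38) and TNFRSF10B (-0.27 to 0.32) that interval left out a rise of the size of AEN (log2 fold change 0.49). The labels give no batch.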

Additional observations from a re-analysis of the deposited data

How the results depend on the processing

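Over the 12 alternatives, the counts of all genes and of p53 targets that rose stayed within 1.5 times unless a library was left out. Targets of p53 that fell numbered 0 with library totals and with GC and length offsets. With no filter, the p53 regulators numbered 2 higher and 2 lower, further targets 2 lower, DREAM genes 8 higher and 5 lower, ATF4 genes 6 higher and immediate early genes 6 higher and 1 lower. A minimum of 50 counts gave 3 regulators lower, 6 DREAM genes lower and 0 immediate early genes higher. GC and length offsets gave 5 regulators, 3 further targets and 5 DREAM genes lower and 2 immediate early genes higher. Library totals, which raised the median of all genes to 0.10, gave 9 DREAM genes higher and 1 lower and 6 ATF4 genes higher. DESeq2 gave 5 ATF4 and 2 immediate early genes higher, and limma voom 0 immediate early genes higher.

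Leaving out 1 library moved every count: 45 to 4795 genes rose and 267 to 4471 fell; p53 targets 1 to 21 and 0 to 5; regulators 0 to 6 and 0 to 8; further targets 0 to 17 and 0 to 6; DREAM genes 1 to 20 and 0 to 9; ATF4 genes 0 to 11 and 0 to 7; immediate early genes 0 to 17 and 0 to 11. CD276 ran from -1.13 to -0.92 and missed the threshold without control replicate 3 (edgeR adjusted p = 0.0812).

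The replicate numbers 1 and 3 are shared, but the deviations of same-numbered libraries correlated at -0.015 over genes, so nothing shows that they pair the samples. With the replicate number as a block, 2062 genes rose and 2781 fell, with 10 p53 targets higher and 1 lower, 2 further targets lower and 6 immediate early genes higher and 1 lower.

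Of 360 fold changes of single targets under an alternative, 295 kept direction and side of the threshold, 22 lost their call, 31 gained one and 12 changed sign. With offsets, MDM2 was at -0.061, TNFRSF10B at -0.18, DDB2 at -0.047 and GDF15 at 0.18. TNFRSF10B was at -0.018 with a minimum of 50 counts, and FOS at -0.67 under limma voom and -0.52 with the block. Over the fits without 1 library, the log2 fold change ran from -0.34 to 0.59 for GADD45A, -0.011 to 0.22 for MDM2, -0.85 to 0.11 for BBC3, -0.0028 to 0.073 for TNFRSF10B, -0.042 to 0.67 for PHLDA3, -0.031 to 0.27 for DDB2, -0.65 to 0.29 for GDF15, -3.37 to 2.13 for FOS and -1.61 to 2.21 for EGR1. The cause was not tested.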
